A study of Mus musculus with 4 samples.

Results

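The liver is the main site where amino acids are broken down and their nitrogen is disposed of, and 45 mouse genes for these steps are described here. They were chosen by function, as hepatocyte enzymes and carriers of amino acid catabolism and ammonia disposal, and found by gene name. By name, the table of input RNA held 44 of them among 12883 genes, and the table of immunoprecipitated RNA held 32 of them as 36 transcript features among 7569. Bhmt has another name in the input, so counts of members in the input and in both tables leave it out. Liver biopsies came from C57/Bl6 mice, either wild type or knocked out for Fto. From each genotype an immunoprecipitate (6mA-IP) and an input of total RNA were made, which gives 4 samples in 4 groups, each labelled as 3 replicates. Neither an age nor a sex of the mice is labelled, nor is the Fto allele or whether a replicate was a separate animal. The Fto protein removes methyl groups from adenosines of RNA. The libraries were made by miCLIP, in which an antibody against methylated adenosine is crosslinked to RNA and the bound fragments are cloned. Only comparison tables made by the authors were used, so each gene has 1 mean over the libraries and 1 log2 fold change with its standard error (SE). Single replicates were not analysed here, and depth per library is unknown.

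Amino groups removed from amino acids are gathered on glutamate and released as ammonia, which hepatocytes around the portal vein turn into urea. Hepatocytes around the central vein catch what escapes and bind it into glutamine. The carbon skeletons that remain feed glucose, ketone body and energy metabolism, and several of the enzymes are induced by glucagon, glucocorticoids or a protein-rich diet.

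Levels here are mean normalized signals, scaled by the authors within each table and not corrected for transcript length, so they measure how well a gene was covered and do not rank genes against each other. Fto itself stood at −1.49 on the log2 scale in the input (SE 0.27, adjusted p = 3.52e-04), as the authors' deposited table gives it. That value is the reason for reading the fold changes as knockout over wild type, since the header gives no direction. The immunoprecipitate was read the same way without such a check, and the opposite reading would turn every sign in it. Members were well covered in the input, with means from 27.7 to 11363 (median 600) against a median of 26.1 over all genes. Their SEs there ran from 0.20 to 0.29. In the immunoprecipitate the member features had means from 1.66 to 291 (median 12.7), and their SEs ran from 0.85 to 4.27. In both genotypes together, hepatocyte markers had a summed input mean of 131950, of which Alb alone gave 84262. The sums were 792 for macrophage, 557 for endothelial, 850 for stellate and 90.8 for cholangiocyte markers. For lymphocyte markers the sum was 46.5, and for erythroid and neutrophil markers 282. The lists differ in length, so these sums do not measure shares of cells.

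The first question was whether input RNA of these genes differed between knockout and wild-type liver. No member passed the test in the input: 0 of 44 had an adjusted p under 0.05, where 0.0389% of all tested genes did. The lowest member p belonged to Glul, and its adjusted p was 0.9998 in the authors' deposited table, as it was for all 44. At an unadjusted p under 0.05 there were 5 members, 3 of them at a positive and 2 at a negative fold change. This is 11.4% of the members, against 2.21% of all genes, of which 1.23% were at a positive and 0.979% at a negative fold change. Among genes with a mean of at least 100, 4 of 41 members (9.76%) and 3.16% of all genes had such a p. The median member stood at 0.03, beside 0.02 for all genes, and 27 of 44 members (61.4%) lay above 0, beside 53.5% of all genes. Fold changes ran from −0.58 to 0.57. Over all genes they ran from −1.49 to 1.36, and SEs nowhere exceeded 0.302, even at a mean of 2.34 (Cd3e, SE 0.23). In the immunoprecipitate the fold changes of all features ran from −25.05 to 22.89, with SEs up to 4.41. Whether the authors' fit pulled input fold changes toward 0 is not known, so sizes should not be compared between input and immunoprecipitate. On the input's own scale the members kept close to 0 on balance, with single genes on either side.

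**Figure D1:**
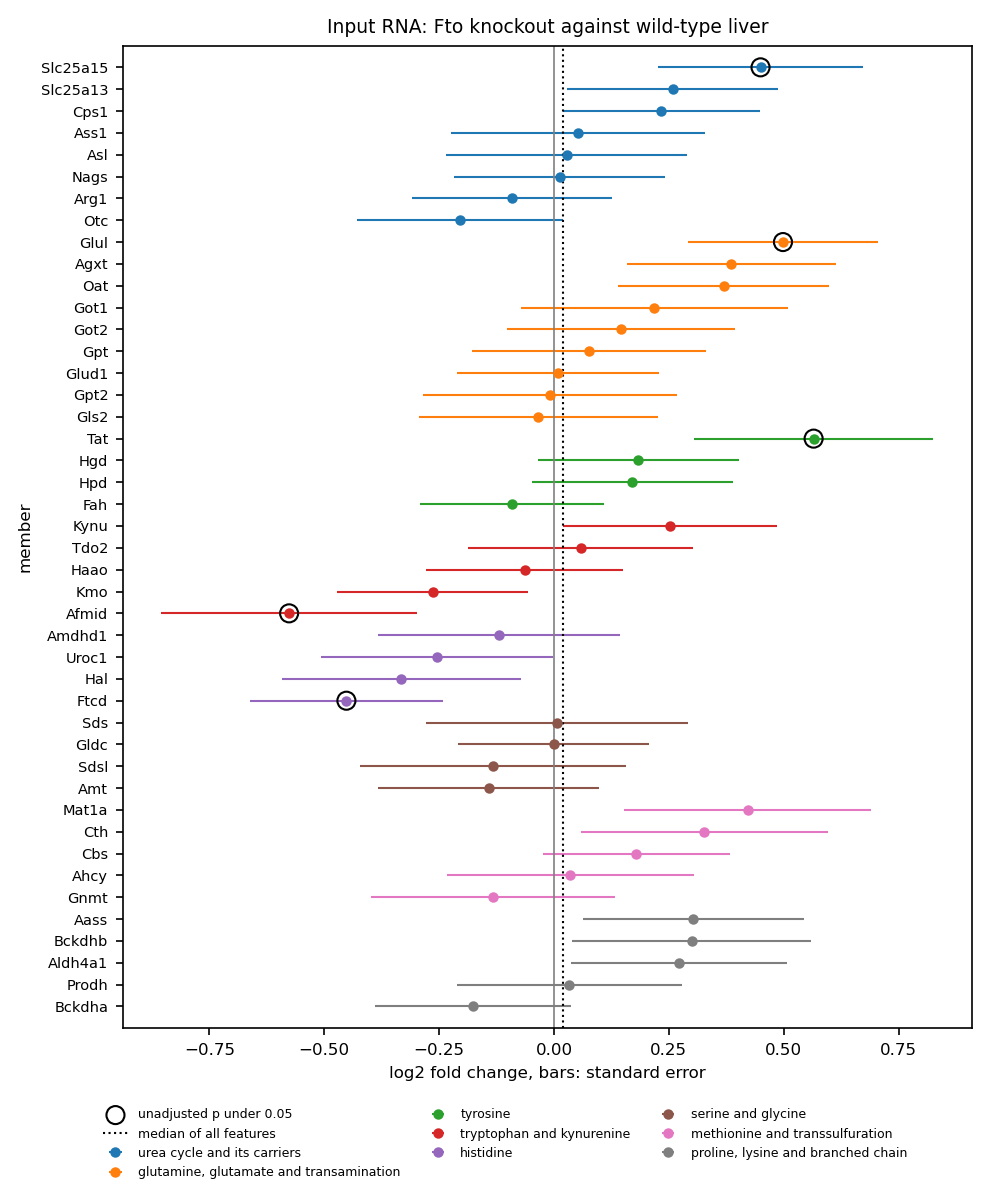
Log2 fold change of input RNA, knockout against wild type, for the 44 members (points, coloured by role) with standard errors (bars); circles mark an unadjusted p under 0.05 and the dotted line is the median of all genes. Glul, Tat and Slc25a15 are circled on the right, Ftcd and Afmid on the left, and all 4 histidine genes lie below 0.

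Urea cycle genes mostly sat near 0 in the input. Cps1, which makes carbamoyl phosphate from ammonia and commits it to the cycle, stood at 0.23 (SE 0.21, mean 11363) in the authors' deposited table. Otc, which joins carbamoyl phosphate to ornithine, stood at −0.20 (SE 0.22) in the authors' deposited table. The next enzymes were close to 0, namely Ass1, which adds aspartate, at 0.05, Asl, which releases fumarate, at 0.03, and Arg1, which splits off urea, at −0.09 in the authors' deposited table. Nags, which makes the activator of Cps1, was at 0.01 in the authors' deposited table. The mitochondrial carriers had the largest positive values of this group. Slc25a15, which brings ornithine into mitochondria, stood at 0.45 (SE 0.22, p = 0.0446) and Slc25a13, which exports aspartate, at 0.26 (SE 0.23) in the authors' deposited table. Among these 8 genes 6 lay above 0, and 1 had an unadjusted p under 0.05.

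Genes that move nitrogen between glutamate, glutamine and other amino acids lay above 0 in 7 of 9 cases. Glul, the glutamine synthetase of hepatocytes around the central vein, stood at 0.50 (SE 0.21, p = 0.0154, mean 1552), a 1.41-fold level, in the authors' deposited table. Oat, the ornithine aminotransferase found in the same cells, stood at 0.37 (SE 0.23, p = 0.109) in the authors' deposited table. Gls2, the liver glutaminase of the portal side, was at −0.03 (SE 0.26) in the authors' deposited table. Glud1, which releases ammonia from glutamate, was at 0.01 (SE 0.22) in the authors' deposited table. The aspartate aminotransferases Got1 and Got2 were at 0.22 and 0.15, and the alanine aminotransferases Gpt and Gpt2 at 0.08 and −0.01, in the authors' deposited table. Agxt, which removes glyoxylate in peroxisomes, stood at 0.39 (SE 0.23, p = 0.0899) in the authors' deposited table.

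Aromatic amino acid genes held the extremes of the input values. Tat, the first enzyme of tyrosine breakdown, stood highest of all members at 0.57 (SE 0.26, p = 0.0302, mean 3393), a 1.48-fold level, in the authors' deposited table. The later tyrosine enzymes did not share that value, with Hpd at 0.17, Hgd at 0.18 and Fah at −0.09 in the authors' deposited table. In the kynurenine route of tryptophan, Tdo2, which opens the ring, was at 0.06 (SE 0.24) in the authors' deposited table. Afmid, the formamidase of the next step, stood lowest of all members at −0.58 (SE 0.28, p = 0.0380), a 0.671-fold level, at a mean of 49.9 in the authors' deposited table. Kmo was at −0.26, Kynu at 0.25 and Haao at −0.06 in the authors' deposited table, so enzymes of this 1 route lay on either side of 0.

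Histidine breakdown was the 1 role group with no member above 0 in the input. Hal, which removes ammonia from histidine, stood at −0.33 (SE 0.26) and Uroc1, which hydrates urocanate, at −0.25 (SE 0.25) in the authors' deposited table. Amdhd1, which acts after Uroc1, was at −0.12 (SE 0.26) in the authors' deposited table. Ftcd, which passes the formimino group to folate, stood at −0.45 (SE 0.21, p = 0.0318) in the authors' deposited table. The median of the 4 genes was −0.29, and 1 had an unadjusted p under 0.05. The other 3 had unadjusted p of 0.202, 0.313 and 0.651.

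The remaining routes had no member with an unadjusted p under 0.05. Among serine and glycine genes, the cleavage system members Gldc and Amt were at −0.00 and −0.14, the serine dehydratase Sds at 0.01 and its relative Sdsl at −0.13 in the authors' deposited table. Among methionine genes, Mat1a, which makes S-adenosylmethionine in adult liver, stood at 0.42 (SE 0.27, p = 0.117, mean 4908) in the authors' deposited table. Gnmt, which uses up surplus S-adenosylmethionine, was at −0.13 and Ahcy, which removes its by-product, at 0.03 in the authors' deposited table. The transsulfuration enzymes Cbs and Cth were at 0.18 and 0.33 in the authors' deposited table. Bhmt, which remethylates homocysteine with betaine, is named by an older clone identifier in the input and was found there only by its gene identifier (ENSMUSG00000074768), at 0.01 (SE 0.22) in the authors' deposited table. Aass of lysine, Bckdhb of the branched-chain dehydrogenase and Aldh4a1 of proline stood at 0.30, 0.30 and 0.27 in the authors' deposited table. The partner subunit Bckdha was at −0.18 and Prodh, the first proline enzyme, at 0.03 in the authors' deposited table.

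Because Glul and Gls2 mark opposite ends of the liver lobule, other zoned genes were set beside them. Of 12 measured genes on the pericentral list, 10 lay above 0 in the input, with a median of 0.38, beside 53.5% of all genes above 0. None had an adjusted p under the threshold. An unadjusted p under 0.05 was found for 3 of them, beside 2.21% of all genes and 3.16% of those with a mean of at least 100. These 3 were Glul and the cytochrome P450 genes Cyp1a2 at 0.55 (SE 0.23, p = 0.0175) and Cyp2e1 at 0.43 (SE 0.21, p = 0.0399) in the authors' deposited table. Slc1a2, the glutamate importer of the Glul-expressing cells, stood at 0.42 (SE 0.25) in the authors' deposited table. Of the others on the list, Slc1a4 stood at 0.46, Lect2 at 0.39 and Gulo at 0.32 in the authors' deposited table. The lowest values were those of Axin2 and Lgr5, both at 0.03, Rnf43 at −0.04 and Tbx3 at −0.16 in the authors' deposited table. Without Glul and Oat the other 10 pericentral genes had a median of 0.35, with 8 above 0.

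The periportal list, which holds 9 of the members, was centred near 0 in the input. Its 15 genes had a median of 0.01, with 8 above 0, and 3 had an unadjusted p under 0.05, 1 at a positive and 2 at a negative fold change. Of all genes, 53.5% lay above 0 and 2.21% had such a p. Cyp2f2, a P450 of the portal side, stood at −0.75 (SE 0.24, p = 0.00181) and the steroid enzyme gene Hsd17b6 at 0.97 (SE 0.29, p = 9.18e-04) in the authors' deposited table. Neither passed after adjustment (adjusted p = 0.866 and 0.577 in the authors' deposited table). Pck1, the gluconeogenic enzyme of this zone, was at 0.11 in the authors' deposited table. The difference between the zone lists was not tested.

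**Figure D2:**
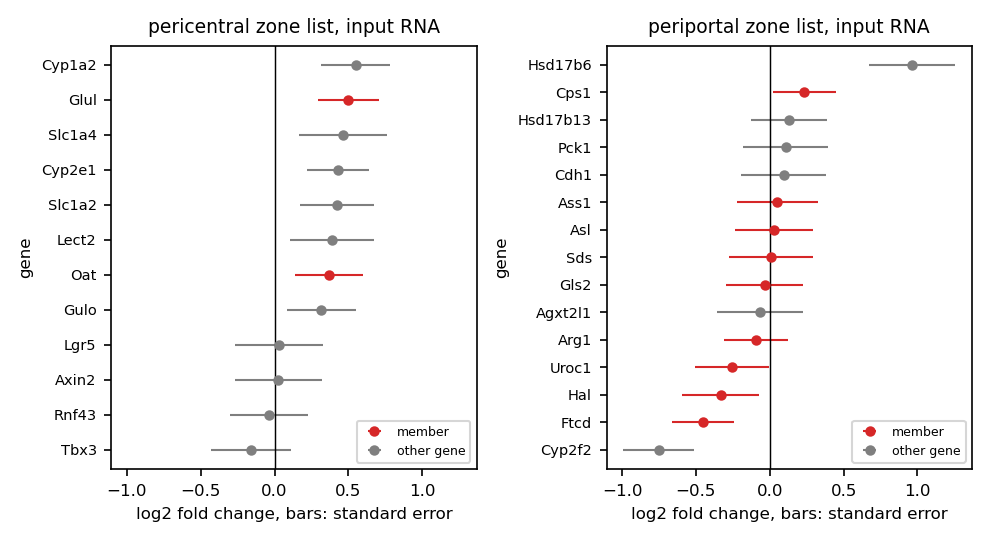
Log2 fold change of input RNA (points) with standard errors (bars) for the pericentral (left) and periportal (right) lists, members in red and other genes in grey. Glul, Oat, Cyp1a2, Cyp2e1 and Slc1a2 lie above 0 while Axin2 and Lgr5 lie at 0.03, and the periportal genes spread from Cyp2f2 at −0.75 to Hsd17b6 at 0.97.

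Further genes of amino acid metabolism, 80 listed and 74 measured in the input, included 0 with an adjusted p under 0.05 and 5 with an unadjusted one. Over all genes the shares were 0.0389% and 2.21%. The median of the 74 genes was −0.06, and 31 of them lay above 0, beside 53.5% of all genes. Acmsd, which diverts the kynurenine route from NAD synthesis, stood at 0.68 (SE 0.27, p = 0.0107) and the kynurenine aminotransferase gene Ccbl2 at 0.55 (SE 0.22, p = 0.0127) in the authors' deposited table. Csad, of taurine synthesis, stood at −0.68 (SE 0.28, p = 0.0138) in the authors' deposited table. On the branched-chain list, 0 of 22 genes had an unadjusted p under 0.05.

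Markers of other cell types were read in the input beside these values, and no marker had an adjusted p under the threshold. Hepatocyte markers lay below 0 in 6 of 7 cases (median −0.16, from −0.46 to 0.13). Macrophage markers lay above 0 in 3 of 8 (median −0.02), endothelial ones in 4 of 5 (median 0.15), stellate ones in 3 of 6 (median −0.00) and cholangiocyte ones in 3 of 5 (median 0.00). Lymphocyte markers lay above 0 in 2 of 2 (median 0.22), and erythroid and neutrophil ones in 2 of 5 (median −0.48). Over all genes 53.5% lay above 0. The red cell genes Alas2, Hbb-b1 and Hba-a1 stood at −0.99 (SE 0.29, p = 4.92e-04), −0.52 and −0.48 in the authors' deposited table. The neutrophil genes S100a9 and S100a8 stood at 0.52 (SE 0.26, p = 0.0499) and 0.14 in the authors' deposited table. The part of cell makeup in the members' values was not tested, and in bulk tissue fewer cells of a type cannot be told apart from less RNA per cell.

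The second question was whether antibody-bound RNA of the members differed between the genotypes. None passed the test: 0 of the 22 member features with an adjusted p were under 0.05, where 4.69% of all such features were. At an unadjusted p under 0.05 there was 1 of 33 member features (3.03%), against 10.4% of all features. The table's middle lies far from 0, since the median of all 7569 features was −1.59. The median member feature stood at −0.66, which is 0.93 above it, and 14 of 36 lay above 0 but 21 of 36 above the median of all features. Among features with a mean of at least 10, the 19 member features had a median of −0.38 beside −0.82 for all, a difference of 0.44. At a mean of at least 50 the 10 member features had a median of −0.71 beside −0.61 for all, a difference of −0.10. Directions near 0 in the immunoprecipitate therefore depend on the scaling.

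**Figure D3:**
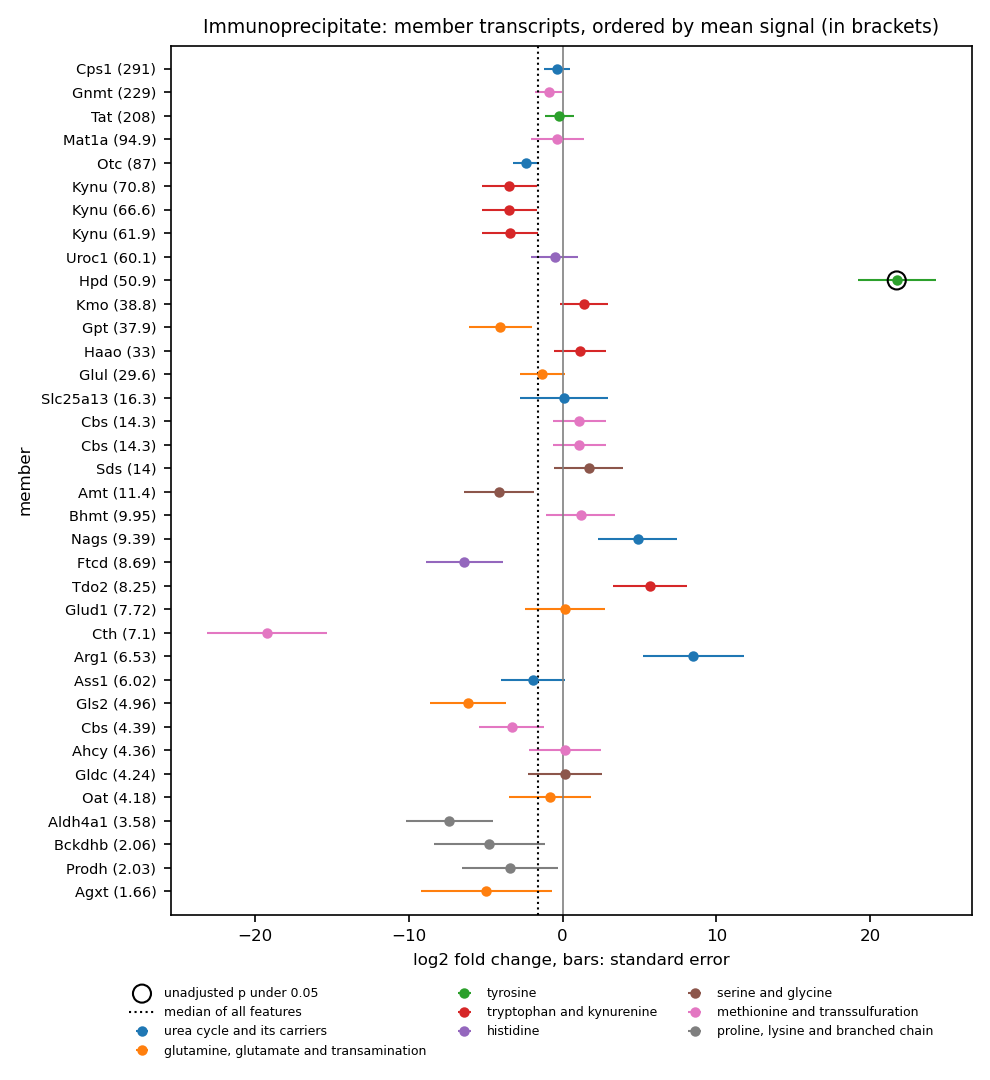
Log2 fold change in the immunoprecipitate (points, coloured by role) with standard errors (bars) for the 36 member transcripts, ordered by mean signal, which stands in brackets after each name. Features with the highest means (Cps1, Gnmt, Tat) have short bars near 0, Hpd at 21.73 is the 1 circled point, and the dotted line at −1.59 is the median of all features, so points between it and 0 change side when the values are centred.

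The 3 member transcripts with a mean of at least 100 had adjusted p well above the threshold. Cps1 stood at −0.38 (SE 0.85, adjusted p = 0.734, mean 291), Gnmt at −0.92 (SE 0.88, adjusted p = 0.901, mean 229) and Tat at −0.21 (SE 0.96, adjusted p = 0.877, mean 208) in the authors' deposited table. Centred on the median of all features, these 3 were positive, at 1.21, 0.68 and 1.38. Among the 217 features with a mean of at least 100, however, the median was −0.38. Cps1 lay at that value, Tat above it and Gnmt below it. Mat1a stood at −0.36 (SE 1.72, mean 94.9) and Uroc1 at −0.51 (SE 1.52, mean 60.1) in the authors' deposited table. Otc stood at −2.39 (SE 0.85, p = 0.104, adjusted p = 0.339, mean 87.0) in the authors' deposited table, or −0.80 when centred on the median of all features. Among features with a mean of at least 50 the median was −0.61, so Otc lay further below that middle. The fold change of Otc over its SE was −2.83, but the authors' p belongs to another statistic, with 1 degree of freedom, and not to that ratio. When p was taken from the fold change over its SE, 10.8% of all features had an adjusted p under 0.05, and 3 member features did: Otc (adjusted p = 0.0457), Hpd (adjusted p = 1.51e-14) and Cth (adjusted p = 4.38e-05).

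Among the other urea cycle genes the spread was wide and the coverage thin. Arg1 stood at 8.50 (SE 3.27, p = 0.0609, mean 6.53) and Nags at 4.89 (SE 2.56, mean 9.39) in the authors' deposited table. Ass1 stood at −1.92 (SE 2.10, mean 6.02) and Slc25a13 at 0.08 (SE 2.87, mean 16.3) in the authors' deposited table. Asl and Slc25a15 were not found among the immunoprecipitate features. The lowest unadjusted p of the group was that of Arg1.

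Of the nitrogen transfer genes, 5 of 6 features lay below 0 and 3 of 6 above the median of all features. Glul stood at −1.33 (SE 1.45, adjusted p = 0.601, mean 29.6) and Oat at −0.82 (SE 2.67, mean 4.18) in the authors' deposited table. The value of Oat is shared, to 4 decimals, by 786 features, and those of Gldc and Glud1 (both 0.14) by 240 and 29, in the authors' deposited table, so these 3 members carry no fold change of their own. Gls2 stood at −6.17 (SE 2.48, p = 0.0797, mean 4.96), Gpt at −4.06 (SE 2.04, mean 37.9) and Agxt at −4.96 (SE 4.27, mean 1.66) in the authors' deposited table.

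Tyrosine and tryptophan genes included the 1 member with an unadjusted p under 0.05. Hpd, which makes homogentisate, stood at 21.73 (SE 2.53, p = 0.0231, adjusted p = 0.155) at a mean of only 50.9 in the authors' deposited table. A log2 fold of that size is not measurable at such a mean, and its sign rests on the unchecked direction of the immunoprecipitate. Tdo2 stood at 5.65 (SE 2.41, p = 0.113, mean 8.25) in the authors' deposited table. The 3 Kynu transcripts stood between −3.48 and −3.41 (SE 1.79 to 1.83, means 61.9 to 70.8) in the authors' deposited table. As transcripts of 1 gene they are not independent, and 2 of them have no p. Kmo stood at 1.38 (SE 1.54, mean 38.8) and Haao at 1.13 (SE 1.71, mean 33.0) in the authors' deposited table.

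The remaining members of the other roles are given next, beside Gnmt, Mat1a and Uroc1 above. Ftcd of histidine breakdown stood at −6.41 (SE 2.50, p = 0.0809, mean 8.69) in the authors' deposited table. Cth, which makes cysteine, stood at −19.23 (SE 3.88, p = 0.0801, adjusted p = 0.295, mean 7.10) in the authors' deposited table, again beyond any measurable size. A pair of Cbs transcripts had the same values (1.08, SE 1.71, mean 14.3), while another stood at −3.33 (SE 2.09, mean 4.39), in the authors' deposited table. Bhmt stood at 1.16 (SE 2.22) and Ahcy at 0.14 (SE 2.33) in the authors' deposited table. Amt stood at −4.15 (p = 0.0905, mean 11.4) and Sds at 1.69 (SE 2.26, no p) in the authors' deposited table. Aldh4a1 stood at −7.39 (SE 2.84, p = 0.0875), Bckdhb at −4.76 and Prodh at −3.44 in the authors' deposited table. Their means ran from 2.03 to 3.58. These 3 were the members of their group that were measured, and all lay below the median of all features.

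The antibody also binds N6,2'-O-dimethyladenosine, which forms only where the first transcribed base is an adenosine, so the annotated starts are shown for the members with the lowest immunoprecipitate p that have an entry, and for Gnmt and Tat as well covered examples chosen after their values were seen. Each line runs from 15 bases before the start to 14 after its first base, 5' to 3' on the gene's strand, and the capital marks the first transcribed base. The sequences are from RefSeq on GRCm38.p6, the same build as mm10, and the table had an entry for 35 of 45 members.
Hpd, chr5:123182709-123182738, minus strand: aacgccccgccacctGgcttcttgtcccag
Ftcd, chr10:76575633-76575662, plus strand: ggccatcagagagttGtcactctgtgtccc
Aldh4a1, chr4:139622879-139622908, plus strand: cgaggagaagagagtAtcatttcagggctt
Amt, chr9:108296890-108296919, plus strand: cttcagtgtgacttcAgtgtgccggccgca
Otc, chrX:10252290-10252319, plus strand: tgataaggtagtggaAgggtgctaagacct
Tdo2, chr3:81975714-81975743, minus strand: taccattcctgacctAgcaaacctgtgtgg
Cbs, chr17:31637191-31637220, minus strand: ccaatcgccgaagccTgttgtgtgtggctg
Gnmt, chr17:46729151-46729180, minus strand: cgtggcctgagagccAggcgccggtcagga
Tat, chr8:109990421-109990450, plus strand: aggaccgcacctgaaCtcatcatcagagga

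An adenosine start was annotated in 13 of 37 member windows (35.1%), beside 34.4% of all 32851 windows. Of the members shown, Aldh4a1, Amt, Otc, Tdo2 and Gnmt start with A, and their fold changes lie on both sides of 0. In the immunoprecipitate the 10 members with an A start had a median of −0.71 (from −7.39 to 5.65), and the 8 with a G start a median of −1.07 (from −6.41 to 21.73), with 1 feature per gene. The 4 with a C start had a median of 0.14 (from −0.21 to 1.13), and the 2 with a T start stood at −3.44 and 1.08. The C median is the value of Glud1 and Gldc, which carry no fold change of their own. The same limit holds for Oat among the G starts. The ranges of all 4 starts overlapped, and their difference was not tested. The word GGAC, searched on both strands of the 300 bases around the start, occurred in 91.9% of member windows and 87.7% of all windows. TATAAA occurred in 13.5% and 13.6% on either strand. Median CG counts per window were 11 for members and 7 for all windows. Transcripts often start at several bases, and the annotated start need not be the one used in these livers.

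The means of both tables give a further view, the immunoprecipitate mean (of the transcript with the highest mean) as a percentage of the input mean of the same gene, which sets each gene against itself. It pools both genotypes, the tables were normalized separately, and no error can be given, so only its order can be used. Across the 31 members in both tables it ran from 0.240% to 17.8%, with a median of 1.93%. Kynu (17.8%), Otc (16.1%), Amt (12.9%) and Gnmt (10.8%) were highest. Oat (0.240%), Tdo2 (0.316%), Agxt (0.329%) and Arg1 (0.330%) were lowest. Otc and Arg1, enzymes of the same cycle, thus stood nearly at opposite ends, as did Kynu and Tdo2 within the kynurenine route. Of these, Arg1, Agxt, Tdo2 and Oat had immunoprecipitate means under 10, so their exact places are uncertain. Members not found in the immunoprecipitate, such as Hgd (input mean 996) and Asl (input mean 789), have no ratio, so the low end is incomplete. At an input mean of at least 500, 73.1% of members and 80.4% of all genes had a ratio.

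Over all 3966 genes in both tables the median ratio was 10.2%, and 27 of 31 members lay under it. That median was lower among abundant genes. Among genes with an input mean of at least 100 it was 3.20%, with 19 of 30 members under it. At an input mean of at least 500 it was 1.81%, with 11 of 19 members under it. At an input mean of at least 1000 it was 1.92%, and 5 of 10 members lay under it. These sets share only a minimum mean and were not matched to the members for abundance. Within them the members lay on both sides of the middle, with more of them under it at the minimums of 100 and 500.

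**Figure D4:**
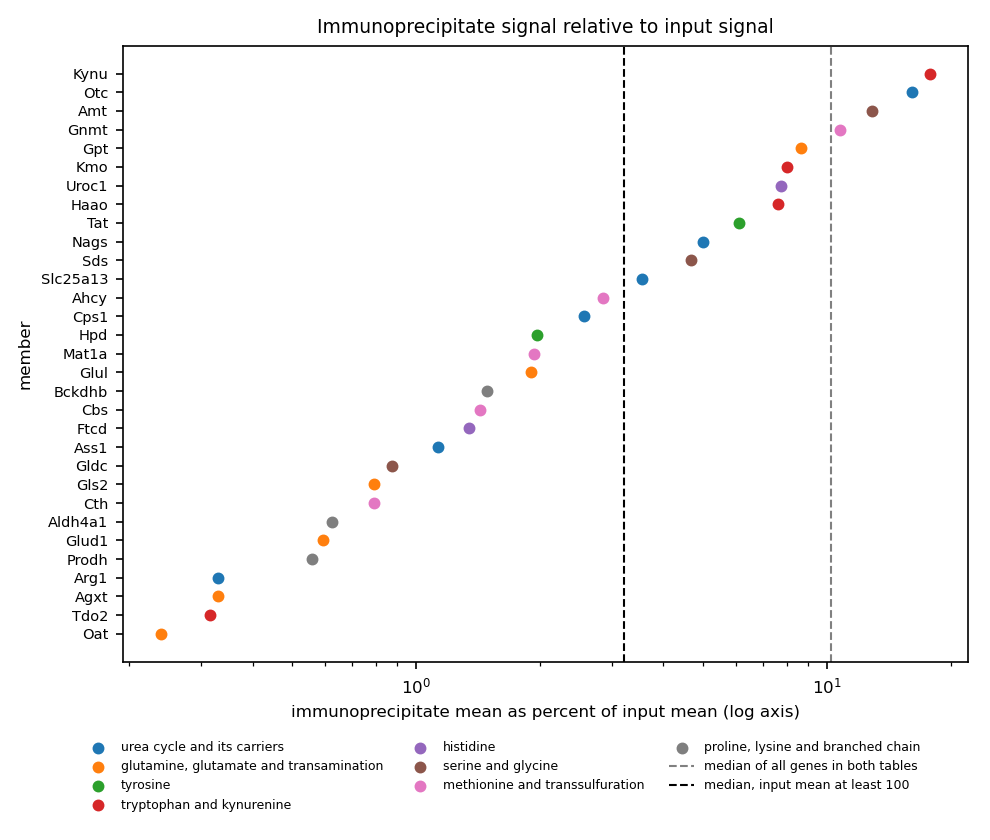
Immunoprecipitate mean as a percentage of input mean (log axis) for 31 members, coloured by role. Kynu at 17.8% and Otc at 16.1% are at the top and Oat at 0.240% at the bottom; the dashed lines are the medians of all genes in both tables (10.2%) and of those with an input mean of at least 100 (3.20%).

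Of the 5 members with an unadjusted p under 0.05 in the input, 3 had an immunoprecipitate value, and none of these had an unadjusted p under 0.05 there. Glul was at 0.50 in the input and −1.33 (SE 1.45) in the immunoprecipitate, and Tat at 0.57 and −0.21 (SE 0.96), in the authors' deposited tables. Ftcd was at −0.45 and −6.41 (SE 2.50, p = 0.0809), below 0 in both, in the authors' deposited tables. Slc25a15 and Afmid were not found among the immunoprecipitate features. Hpd, Cth and Arg1, with the most extreme immunoprecipitate values, were at 0.17, 0.33 and −0.09 in the input (p = 0.435, 0.224 and 0.673) in the authors' deposited tables. The difference between the tables was not tested for single members, and their fold changes are on unlike scales, so sizes should not be compared.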

How the data were processed

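Per the labels, liver RNA was extracted with TRIzol, treated with DNase and cloned by the miCLIP procedure. The submitters' processing notes name STAR, bedtools 2.25.0, DESeq2 and the build mm10 without roles. Per the file headers, the deposited columns are a mean normalized signal, a log2 fold change, its standard error, a score that is the test statistic, and the raw and adjusted p-value. The rules of read counting and the model, not given in the sources used here, are unknown. In the input the deposited statistic equals the fold change over its standard error. In the immunoprecipitate the p-value equals the chi-square upper tail (1 degree of freedom) of the statistic, and 723 features have no p.

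Features were called at an adjusted p under 0.05 as the authors computed it (DESeq2). In the immunoprecipitate 2347 of 7569 features have an adjusted p, among them 22 member features. Medians, counts, ratios of means and sequence windows were computed with Python 3.11.15, pandas 2.3.3, NumPy 2.4.6 and SciPy 1.17.1, and the adjustment was tested on simulated data. All members are accounted for. Members with the 10 lowest p or 10 highest means per table, and up to 3 genes of other lists, were given in full, except that 1 item is not reported here. Members and lists were chosen with earlier results of these data known. Since replicates are not labelled as separate animals, the p-values reflect only how these samples varied, and that variation may be technical.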

Additional observations from a re-analysis of the deposited data

How the results depend on the processing

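No member passed in the input at a threshold of 0.1, with p adjusted over the table, at a mean of at least 10, or at a mean of at least 100 with p adjusted over those genes (chosen after seeing the data), so the count was 0 each time. At an unadjusted p under 0.05 it was 5, and 4 at a mean of at least 100. In the immunoprecipitate the count was 0 at a threshold of 0.1, with p adjusted over the table, at a mean of at least 10 and with 1 feature per gene, and 3 (Hpd, Cth, Otc) with p from fold change over standard error. The unadjusted count was 1. The members' median in the input ranged from 0.02 when centred to 0.04 at a mean of at least 50, beside 0.03. In the immunoprecipitate it was −0.66, and it turned to 0.93 when centred on the median of all features. There it was −0.38 and −0.71 at means of at least 10 and 50, −0.45 with 1 feature per gene and −0.92 without values shared by 10 or more features. No paired analysis was possible because the tables hold no values of single replicates, and for the same reason no replicate could be left out. Member features of the immunoprecipitate had a median mean of 12.7, beside 4.92 for all features, and whether coverage limited the calls was not tested.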

Other observations

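Regulators of these genes and carriers of their substrates were read as well. In the input, Cebpa, a hepatocyte transcription factor that controls urea cycle genes, stood at −0.52 (SE 0.21, p = 0.0133) and Creb3l3, a fasting-responsive factor, at −0.47 (SE 0.22, p = 0.0371) in the authors' deposited table. The glucagon receptor gene Gcgr stood at −0.33 (SE 0.21) in the authors' deposited table. Of 13 regulators 8 lay below 0 and 5 above it, beside 53.5% of all genes above 0. In this list 0 had an adjusted p under 0.05, by DESeq2 as the authors ran it. An unadjusted p under 0.05 was found for 2, beside 2.21% of all genes.

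In the immunoprecipitate 1 of 55 features on the wider lists passed the test, and 50 of the 55 have a p. Fewer still have an adjusted p, so the count is not on the base of the 4.69% of all features with an adjusted p. Ppm1k, the phosphatase that activates the branched-chain dehydrogenase, was lower under the reading as knockout over wild type, with a fitted value of −10.97 on the log2 scale (SE 1.62, adjusted p = 5.29e-05, mean 19.6) in the authors' deposited table. Ido2, which like Tdo2 opens the ring of tryptophan, stood at −11.31 (SE 2.67, adjusted p = 0.0546, mean 17.5) in the authors' deposited table. At such means neither value is a measurable size. Of the 55 features 20 lay above 0 and 28 above the median of all features. The list of nitrogen transport and amide genes had 11 features of only 7 genes, 9 of them above 0, beside 29.5% of all features, and 0 with an unadjusted p under 0.05. Of those 9, 4 are transcripts of Slc7a2 and 2 of Slc1a2, so they are not independent. The Slc7a2 transcripts with the higher means (16.9 and 13.0) stood at 0.14 in the authors' deposited table. That is the value of Gldc, shared to 4 decimals by 240 features, so these transcripts carry no fold change of their own. The highest Slc7a2 transcript, of a transporter of arginine and other cationic amino acids, stood at 5.58 (SE 2.17, adjusted p = 0.229, mean 8.28) in the authors' deposited table. A pair of Slc1a2 transcripts had the same value of 22.40 (adjusted p = 0.228, mean 18.4) in the authors' deposited table, which is not a measurable size.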
